A study of Mus musculus with 8 samples.

Results

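Tbx21, Eomes, Gata3, Rora, Bcl6 and Ahr encode transcription factors that direct or accompany the helper lineages of CD4+ T cells. The 6 genes were taken by symbol from a deposited table of 24016 mouse genes, in which each symbol had 1 row. All 6 were among the 12881 genes that reached 1 CPM, that is 1 read per 1000000 reads assigned to genes, in at least 2 of the 8 libraries. They were chosen by name with earlier results of these data known, so counts among them are descriptions.

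A naive CD4+ T cell that meets antigen can become a Th1, Th2, Th17 or follicular helper (Tfh) cell, and each fate is led by transcription factors that cytokine receptors and STAT proteins switch on. T-bet, the product of Tbx21, leads Th1 cells, GATA-3 leads Th2 cells, RORα takes part in leading Th17 cells, and Bcl6 leads Tfh cells. Eomes is a T-box relative of T-bet known from cytotoxic and memory cells, and Ahr is a receptor for small aromatic ligands used by Th17 and mucosal lymphocytes. Regulatory T (Treg) cells, which are defined by Foxp3 and restrain immune responses, also use these factors: GATA-3 and RORα are known from Treg cells of tissues, T-bet from those that restrain Th1 responses, and Bcl6 from follicular regulatory cells.

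All cells were CD4+ cells of the spleen of NOD mice, a strain prone to autoimmune diabetes, and all mice carried a green fluorescent reporter of Foxp3. Monoclonal Treg and monoclonal non-Treg cells were the reporter-positive and reporter-negative CD4+ cells of NOD.TCRab.FoxP3GFP.Rag-/- mice. These animals, named for nuclear transfer in the series' title, have T cells with 1 αβ receptor and lack a Rag gene, which is needed to assemble receptors. Polyclonal Treg and polyclonal non-Treg cells were the matching populations of NOD.FoxP3GFP mice, which assemble a diverse repertoire and are labelled wild type. Each of the 4 groups had 2 libraries, called A and B. The labels name no treatment, do not give the age or the deleted Rag gene, and do not say that A and B came from different animals, so p-values cover just the spread between A and B, which could be technical. The monoclonal line is 1 receptor, and the effects of receptor, Rag deletion and line cannot be told apart.

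Depth ran from 14076330 to 19722321 reads per library. The sort was visible in Foxp3, which measured 2709 and 2667 CPM in monoclonal Treg and 405 and 319 CPM in monoclonal non-Treg libraries, and 2349 and 2281 CPM in polyclonal Treg and 81.9 and 84.2 CPM in polyclonal non-Treg libraries. The 6 T cell markers were present in every library, with sums of 2934 to 4310 CPM. The CD3 genes among them summed to 1992 and 2006 CPM in monoclonal Treg and 1470 and 1230 CPM in monoclonal non-Treg libraries. In polyclonal mice these sums were 1587 and 2235 CPM in Treg and 1887 and 1928 CPM in non-Treg libraries. Cd4 had the opposite order in monoclonal mice, with 827 and 792 CPM in Treg and 1257 and 1360 CPM in non-Treg libraries. Other cell types left transcripts mainly in the monoclonal libraries. The 8 dendritic cell markers summed to 412 to 452 CPM in monoclonal Treg and 1707 to 1972 CPM in monoclonal non-Treg libraries, against 6.79 to 30.8 CPM in the 4 polyclonal libraries. In bulk RNA, fewer cells of a type and less RNA per cell cannot be told apart.

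Between monoclonal Treg and monoclonal non-Treg cells, Gata3 and Rora were higher and Bcl6 was lower, so 3 of the 6 factors passed the test (limma, adjusted p under 0.05), where 24.4% of all genes tested did. Between polyclonal Treg and polyclonal non-Treg cells, Gata3 and Ahr were higher and Tbx21 was lower, again 3 of 6, where 7.90% of all genes passed (3.28% lower). The Treg effect itself differed between the mice for 4 of 6 factors, against 9.20% of all genes (5.56% more negative): it was more positive in monoclonal mice for Gata3 and Rora and more negative for Bcl6 and Ahr. Within Treg cells, 4 of 6 differed between monoclonal and polyclonal mice (24.2% of all genes), with Gata3 and Rora higher and Eomes and Bcl6 lower in monoclonal cells. Within non-Treg cells, 3 of 6 differed (19.4% of all genes, 7.35% lower), with Ahr higher and Tbx21 and Eomes lower in monoclonal cells. The 5 comparisons share libraries, so they are not separate evidence.

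**Figure D1:**
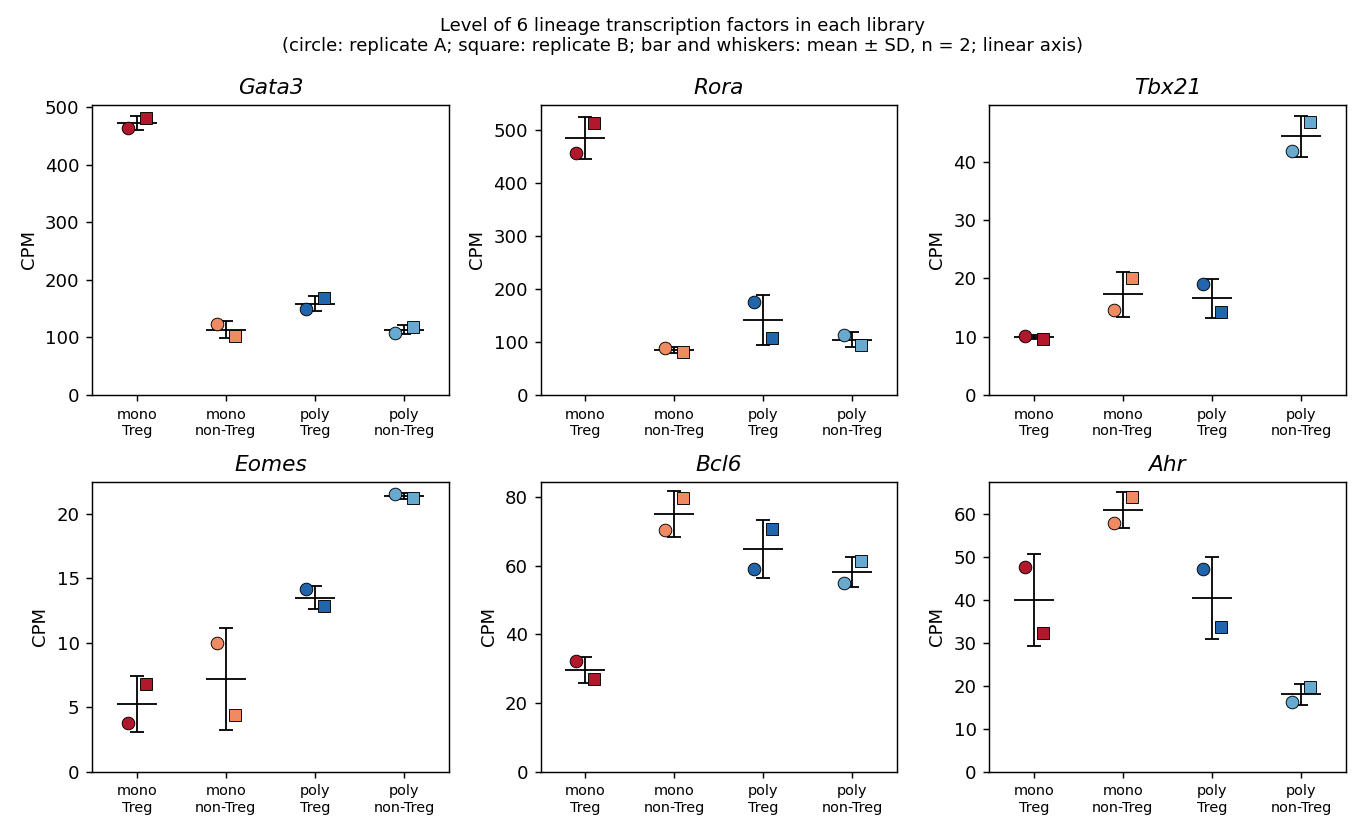
Level of each factor in CPM (linear vertical axes, each starting at 0) in the 4 groups along the horizontal axis; circles are replicate A, squares replicate B, and bars with whiskers the mean ± SD of 2 libraries. Gata3 and Rora stand at 457 to 513 CPM in monoclonal Treg libraries and at 80.9 to 174 CPM in every other library, while Bcl6 is lowest in monoclonal Treg and Ahr lowest in polyclonal non-Treg libraries.

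Set against the listed transcript length, the Gata3 transcript was the most abundant of the 6 in every group. In CPM alone, Rora stood above it in monoclonal Treg cells. Gata3 averaged 147 CPM per kb in monoclonal Treg, 35.3 in monoclonal non-Treg, 49.5 in polyclonal Treg and 35.4 in polyclonal non-Treg cells. The place behind it differed between groups. In monoclonal Treg cells Rora followed with 44.7 CPM per kb and Bcl6 had 9.06, whereas Bcl6 stood behind Gata3 in the other 3 groups, at 22.9 in monoclonal non-Treg, 19.8 in polyclonal Treg and 17.7 in polyclonal non-Treg cells. Eomes was the least abundant per length in 3 groups, between 1.42 and 3.64 CPM per kb, and in polyclonal non-Treg cells Ahr was (3.29). For scale, Foxp3 had 704 CPM per kb in monoclonal Treg cells.

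Gata3 (NM_008091, chromosome 2, 9778705 to 9800227 on mm9, minus strand) measured 464 and 481 CPM in the monoclonal Treg libraries and 124 and 103 CPM in monoclonal non-Treg libraries. It measured 149 and 168 CPM in polyclonal Treg libraries and 108 and 119 CPM in polyclonal non-Treg libraries. Both monoclonal Treg libraries lay far above all others, both polyclonal Treg libraries lay above both polyclonal non-Treg libraries, and the 2 non-Treg groups overlapped. The log2 fold change of Treg over non-Treg cells was 2.06 ± 0.13 (SE, adjusted p = 2.71e-07) in monoclonal mice, a ratio of means of 4.18. In polyclonal mice it was 0.48 ± 0.13 (adjusted p = 0.0434), a ratio of 1.40. The Treg effect was thus larger in monoclonal mice by 1.58 ± 0.19 (adjusted p = 0.000174). Over the alternatives to the main test, the lowest values were 1.49 for the monoclonal effect and 0.99 for this difference. Within Treg cells, monoclonal exceeded polyclonal by 1.57 ± 0.13 (adjusted p = 1.14e-06), while within non-Treg cells the difference was -0.01 with a 95% interval of -0.30 to 0.28. The polyclonal call is fragile: it was lost under 12 of 18 alternatives, with adjusted p up to 0.373. Among these were edgeR on whole reads (adjusted p = 0.0550) and the leaving out of each library in turn except polyclonal Treg replicate A.

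Of 9 tested genes that go with GATA-3 and Th2 cells, 5 were higher in monoclonal Treg cells than in their non-Treg counterparts, where 10.8% of all genes were. The count was 3 when CPM were scaled to the CD3 genes, which moved the median of all genes by -0.53. Without that scaling the median log2 fold change of the list was 1.23, against -0.02 over all genes. Il1rl1, the receptor for the alarmin interleukin-33 and a known GATA-3 target, had 1377 and 1334 CPM in monoclonal Treg libraries, against 233 and 148 CPM in monoclonal non-Treg libraries. Ccr4, a chemokine receptor of Th2 and Treg cells, had 146 and 130 CPM in monoclonal Treg against 26.3 and 24.4 CPM in monoclonal non-Treg libraries. Areg, a growth factor for tissue repair, was low throughout, at 6.83 and 4.07 CPM in monoclonal Treg against 0.499 and 1.03 CPM in monoclonal non-Treg libraries. These 3 changes were 2.86 ± 0.22, 2.398 ± 0.16 and 1.85 ± 0.47 on the log2 scale (adjusted p = 1.02e-06, 3.52e-07 and 0.0105). In polyclonal mice the same list split, with 2 higher and 2 lower in Treg cells and a median of 0.01, where 7.90% of all genes passed. Ccr8 and Il1rl1 were higher (2.71 ± 0.41 and 1.99 ± 0.22), and Il17rb and Epas1 lower (-2.13 ± 0.36 and -1.75 ± 0.28). The Th2 cytokines themselves were close to nothing. Il4 had 0 reads in all 4 monoclonal libraries and at most 2.26 CPM elsewhere, and Il5 and Il13 had 0 reads in every monoclonal and polyclonal Treg library and at most 0.710 CPM in polyclonal non-Treg libraries.

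Of the GATA relatives that define blood lineages, Gata2 reached at most 1.45 CPM, and Gata1, the erythroid and megakaryocyte factor, was low but ordered. Gata1 measured 13.9 and 16.3 CPM in monoclonal Treg and 5.55 and 2.45 CPM in monoclonal non-Treg libraries, and 31.1 and 26.1 CPM in polyclonal Treg and 4.94 and 3.03 CPM in polyclonal non-Treg libraries. The Treg libraries lay above the non-Treg libraries in both mice (1.76 ± 0.37, adjusted p = 0.00318, and 2.59 ± 0.37, adjusted p = 0.000357). The 4 erythroid markers had another order: their sums were 47.0 to 94.6 CPM in monoclonal Treg and 36.7 to 56.2 CPM in monoclonal non-Treg libraries, and 8.37 to 18.5 CPM in polyclonal Treg and 5.87 to 11.2 CPM in polyclonal non-Treg libraries. Their part in the Gata1 values was not tested.

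The Gata3 promoter is shown because it belongs to the most abundant of the 6 factors per listed transcript length. In CPM alone Rora stood above Gata3 in monoclonal Treg cells (means of 485 and 473). The window runs from 250 bases before to 50 after the start that RefSeq lists on GRCm38.p6, at chr2:9878551-9878850 on the minus strand, and is read 5′ to 3′. Of 6 motifs searched on both strands, those of T-box proteins read AGGTGTGA, those of GATA proteins AGATAA, those of ROR proteins AGGTCA, that of Ahr GCGTG, that of STAT proteins TTCNNNGAA and that of forkhead proteins TAAACA. None has a match in these letters, so all of them are in lower case.
Gata3 promoter: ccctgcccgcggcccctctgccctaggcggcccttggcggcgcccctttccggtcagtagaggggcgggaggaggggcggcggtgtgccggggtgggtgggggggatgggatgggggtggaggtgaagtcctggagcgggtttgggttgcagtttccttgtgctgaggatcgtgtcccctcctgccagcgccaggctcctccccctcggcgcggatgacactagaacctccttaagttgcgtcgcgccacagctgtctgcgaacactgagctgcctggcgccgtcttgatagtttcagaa
Among 32851 promoter windows of the same length, 1.28% hold the T-box, 11.2% the GATA, 16.3% the ROR, 32.4% the Ahr, 8.30% the STAT and 13.4% the forkhead letters. The windows of Tbx21 and Eomes hold no match either, and that of Rora has 1 match, to the Ahr letters.

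Rora (NM_001289916, chromosome 9, 69137648 to 69236053 on mm9, plus strand) had the largest Treg effect of the 6 factors in monoclonal mice. It measured 457 and 513 CPM in the monoclonal Treg libraries and 88.6 and 80.9 CPM in monoclonal non-Treg libraries. It measured 174 and 108 CPM in polyclonal Treg libraries and 114 and 93.9 CPM in polyclonal non-Treg libraries. The monoclonal groups were far apart, whereas the polyclonal groups overlapped because polyclonal Treg replicate B lay below polyclonal non-Treg replicate A. The log2 fold change was 2.50 ± 0.19 in monoclonal mice (adjusted p = 8.12e-07) and 0.40 ± 0.19 in polyclonal mice (adjusted p = 0.269), and these differed by 2.10 ± 0.27 (adjusted p = 0.000251). Without polyclonal Treg replicate B the polyclonal value was 0.75 (adjusted p = 0.00488). Over the alternatives, the lowest values were 1.94 for the monoclonal effect and 1.51 for the difference of effects. Within Treg cells, monoclonal exceeded polyclonal by 1.81 ± 0.19 (adjusted p = 8.36e-06). Within non-Treg cells the difference was -0.29 (95% interval -0.69 to 0.12). The table lists Rora by a transcript that spans 98406 bases, while the gene spans 734843 bases in RefSeq on GRCm38.p6, and the sources used here do not say how reads from other exons were counted.

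Rorb, the relative of Rora found in the nervous system, had at most 2 reads in a library. The 7 innate lymphoid cell markers, among them the stem cell factor receptor Kit, summed to 74.7 to 108 CPM in monoclonal Treg and 257 to 307 CPM in monoclonal non-Treg libraries, and to 11.8 to 18.3 CPM in polyclonal Treg and 62.5 to 68.9 CPM in polyclonal non-Treg libraries. Their part in the values of Rora was not tested. Of these markers, Il5 and Il13 had 0 reads in both monoclonal groups and Il23r had 0 reads in monoclonal Treg libraries.

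Of 8 tested ROR and Th17 genes, 1 was higher and 2 lower in polyclonal Treg cells (median -0.22), where 7.90% of all genes passed. In monoclonal Treg cells 3 were higher and 2 lower (median 0.46), where 24.4% of all genes passed. With scaling to the CD3 genes the monoclonal counts were 1 and 3 (median -0.08). The 3 higher without that scaling are circadian clock genes: Cry1 (1.20 ± 0.16, adjusted p = 0.000129), Nr1d2 (0.99 ± 0.23, adjusted p = 0.00588) and Arntl (0.78 ± 0.20, adjusted p = 0.00998). Il1r1, the interleukin-1 receptor of Th17 cells, was lower in Treg cells of both mice (-3.49 ± 0.50 and -2.39 ± 0.50). Its polyclonal call was lost by edgeR, which called 0 of the list lower in polyclonal Treg cells. Il23r, the receptor that stabilises Th17 cells, had 0 reads in both monoclonal Treg libraries and 4.10 and 3.48 CPM in monoclonal non-Treg libraries, at least 20.7-fold lower against a limit of 3 reads per library. Il17a, Il17f and Il22 stayed at or below 0.506 CPM in every library.

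Tbx21 (NM_019507, chromosome 11, 96959321 to 96976645 on mm9, minus strand) was highest in polyclonal non-Treg cells. It measured 10.1 and 9.66 CPM in monoclonal Treg and 14.5 and 19.99 CPM in monoclonal non-Treg libraries. It measured 19.0 and 14.2 CPM in polyclonal Treg and 41.9 and 46.9 CPM in polyclonal non-Treg libraries. Treg libraries lay below non-Treg libraries in both mice, and monoclonal non-Treg and polyclonal Treg libraries overlapped. The fold change of Treg over non-Treg cells was -1.38 ± 0.26 on the log2 scale in polyclonal mice (adjusted p = 0.00355) and -0.73 ± 0.26 in monoclonal mice (adjusted p = 0.0560). The difference between these effects, 0.65 ± 0.37, did not pass the test (adjusted p = 0.315). In monoclonal mice the call turned on the method: edgeR gave -0.89 (adjusted p = 0.0357), DESeq2 -0.86 (adjusted p = 0.0359) and scaling to the CD3 genes -1.27 (adjusted p = 0.00759). The polyclonal call was lost without polyclonal non-Treg replicate B (adjusted p = 0.0861). Within non-Treg cells, the monoclonal minus polyclonal difference was -1.33 ± 0.26 (adjusted p = 0.00188), a call lost with scaling to the CD3 genes (-0.84, adjusted p = 0.0786). Within Treg cells the difference was -0.68 ± 0.26 (adjusted p = 0.0736).

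Eomes (NM_010136, chromosome 9, 118387307 to 118395250 on mm9, plus strand) had the lowest CPM of the 6 factors in 3 of the 4 groups, all but polyclonal non-Treg cells. It measured 3.74 and 6.78 CPM in monoclonal Treg and 9.98 and 4.39 CPM in monoclonal non-Treg libraries, which overlapped. It measured 14.1 and 12.9 CPM in polyclonal Treg and 21.5 and 21.2 CPM in polyclonal non-Treg libraries, which did not overlap. Neither Treg effect passed the test (-0.34 ± 0.38, adjusted p = 0.567, in monoclonal and -0.63 ± 0.38, adjusted p = 0.434, in polyclonal mice). All 4 monoclonal libraries lay below all 4 polyclonal ones. The monoclonal minus polyclonal difference was -1.25 ± 0.38 in Treg cells (adjusted p = 0.0258) and -1.54 ± 0.38 in non-Treg cells (adjusted p = 0.00902). Both calls were sensitive to single libraries, with adjusted p up to 0.137 in Treg cells without monoclonal Treg replicate A and up to 0.168 in non-Treg cells without monoclonal non-Treg replicate B. The call in non-Treg cells was also lost with scaling to the CD3 genes (-1.10, adjusted p = 0.0539). Tbr1, the brain T-box relative, had 0 reads in every library.

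NK cells express both T-box factors. The sums of NK cell markers were 65.7 to 69.2 CPM in monoclonal Treg and 104 to 105 CPM in monoclonal non-Treg libraries, against 1.52 to 2.42 CPM in polyclonal Treg and 17.2 to 20.1 CPM in polyclonal non-Treg libraries. They were lower in Treg than in non-Treg libraries of both mice and lower in polyclonal than in monoclonal libraries, and their part in the values of Tbx21 and Eomes was not tested.

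Of 14 tested T-box target genes, 6 were higher and 2 lower in monoclonal Treg cells than in monoclonal non-Treg cells (median 0.70), where 24.4% of all genes passed. With scaling to the CD3 genes these were 5 and 5 (median 0.28). In polyclonal Treg cells 2 were higher and 5 lower (median -0.67), where 7.90% of all genes passed. The difference of the Treg effects passed for 4 of the 14, each more positive in monoclonal mice, and for 9.20% of all genes. It passed for 2 of them by edgeR and 3 by DESeq2. Klrg1, a receptor of terminally differentiated lymphocytes, was higher in Treg cells of both mice (3.12 ± 0.28 and 3.34 ± 0.28), whose effects did not differ detectably (-0.22 ± 0.39). Gzmb, a cytotoxic protease, had 43.8 and 45.6 CPM in monoclonal Treg against 6.27 and 9.42 CPM in monoclonal non-Treg libraries, and its Treg effect was larger in monoclonal mice by 1.97 ± 0.58 (adjusted p = 0.0493). The Th1 chemokine receptor Cxcr3 had a Treg effect of 1.26 ± 0.21 in monoclonal and -0.45 ± 0.21 in polyclonal mice, and these differed (adjusted p = 0.00293). Fasl and Ccl5, a death ligand and a chemokine of effector cells, were lower in polyclonal Treg cells (-1.93 ± 0.43 and -1.80 ± 0.34). Ifng, the signature cytokine of Th1 cells, measured 0.920 and 2.82 CPM in monoclonal Treg and 1.55 and 0.322 CPM in monoclonal non-Treg libraries, against 2.20 and 5.98 CPM in polyclonal Treg and 16.3 and 12.97 CPM in polyclonal non-Treg libraries. Like Tbx21, it was lower in monoclonal non-Treg than in polyclonal non-Treg cells (-3.08 ± 0.51, adjusted p = 0.000447).

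Bcl6 (NM_009744, chromosome 16, 23965138 to 23988698 on mm9, minus strand) was low in monoclonal Treg cells and lay between 55.0 and 79.7 CPM in all other libraries. It measured 32.3 and 27.0 CPM in monoclonal Treg and 70.4 and 79.7 CPM in monoclonal non-Treg libraries. It measured 58.9 and 70.8 CPM in polyclonal Treg and 55.0 and 61.2 CPM in polyclonal non-Treg libraries. Both monoclonal Treg libraries lay below all other 6, and each of the remaining neighbouring groups overlapped with the next. The Treg effect was -1.31 ± 0.18 on the log2 scale in monoclonal mice (adjusted p = 0.000114) and 0.15 (95% interval -0.23 to 0.53, adjusted p = 0.762) in polyclonal mice. The 2 effects differed by -1.47 ± 0.25 (adjusted p = 0.00259). Within Treg cells, the monoclonal minus polyclonal difference was -1.10 ± 0.18 (adjusted p = 0.000433), and within non-Treg cells the difference was 0.36 ± 0.18 (adjusted p = 0.187; 0.86 with scaling to the CD3 genes, adjusted p = 0.0129). Dendritic cell markers, which summed to 412 to 452 CPM in monoclonal Treg and 1707 to 1972 CPM in monoclonal non-Treg libraries, move with the monoclonal Treg effect, and their part in it was not tested.

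STAT proteins activated by interleukin-6 and interleukin-21 induce Bcl6 in Tfh cells, and its promoters are shown for their matches to the letters TTCNNNGAA, which read the same on both strands. RefSeq lists 2 starts on GRCm38.p6, both on the minus strand, at chr16:23988803-23989102 and, inside the gene, at chr16:23981234-23981533. Capitals mark the matches.
Bcl6 upstream promoter: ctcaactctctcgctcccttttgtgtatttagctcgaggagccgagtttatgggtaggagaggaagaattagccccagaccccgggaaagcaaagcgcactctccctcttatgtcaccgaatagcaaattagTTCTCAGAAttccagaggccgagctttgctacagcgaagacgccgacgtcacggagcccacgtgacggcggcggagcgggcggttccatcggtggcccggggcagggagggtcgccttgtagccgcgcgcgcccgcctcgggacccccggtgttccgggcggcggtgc
Bcl6 internal promoter: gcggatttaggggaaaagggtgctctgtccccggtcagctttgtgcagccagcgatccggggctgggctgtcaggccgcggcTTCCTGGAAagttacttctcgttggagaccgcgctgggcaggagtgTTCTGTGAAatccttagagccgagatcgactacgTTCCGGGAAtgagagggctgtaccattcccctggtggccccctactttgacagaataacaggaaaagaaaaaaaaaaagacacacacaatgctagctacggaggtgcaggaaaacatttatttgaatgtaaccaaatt
The upstream window holds 1 match, TTCTCAGAA, and the internal window holds 3, TTCCTGGAA, TTCTGTGAA and TTCCGGGAA. Of all windows of this length, 8.30% hold at least 1 match and 11 of 32851, or 0.0335%, hold at least 3. These are matches of letters and no binding was measured.

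Il6st, the signalling chain of the interleukin-6 receptor, was likewise low in monoclonal Treg cells. It measured 115 and 116 CPM in monoclonal Treg and 486 and 475 CPM in monoclonal non-Treg libraries, against 572 and 438 CPM in polyclonal Treg and 490 and 474 CPM in polyclonal non-Treg libraries. Both monoclonal Treg libraries lay below the other 6. The Treg effect was -2.05 ± 0.13 in monoclonal mice (adjusted p = 2.30e-07) and 0.05 ± 0.13 in polyclonal mice (adjusted p = 0.912), with a difference of -2.10 ± 0.19 (adjusted p = 1.95e-05). Stat3, which the receptor activates, did not pass in any comparison, and its Treg effect in monoclonal mice was -0.21 ± 0.13 (adjusted p = 0.283).

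Of 7 tested genes that Bcl6 is known to repress, 4 were higher and 2 lower in monoclonal Treg cells than in monoclonal non-Treg cells (median 0.51), where 24.4% of all genes passed. With scaling to the CD3 genes these were 2 and 2 (median -0.06). In polyclonal Treg cells 1 was higher and 4 lower than in polyclonal non-Treg cells (median -0.63), where 7.90% of all genes passed. The difference of the Treg effects passed for 5, each more positive in monoclonal mice (1 with scaling to the CD3 genes), and for 9.20% of all genes. Prdm1, which encodes Blimp-1 and opposes Bcl6, measured 105 and 104 CPM in monoclonal Treg and 23.8 and 27.3 CPM in monoclonal non-Treg libraries, and 42.3 and 49.5 CPM in polyclonal Treg and 23.1 and 23.0 CPM in polyclonal non-Treg libraries. It was higher in Treg cells of both mice (1.99 ± 0.18 and 0.96 ± 0.18), and more so in monoclonal mice (difference 1.03 ± 0.26, adjusted p = 0.0232). Il7r, the interleukin-7 receptor of resting cells, had opposite Treg effects of 1.36 ± 0.12 in monoclonal and -2.11 ± 0.12 in polyclonal mice. Id2, an inhibitor of E proteins, was lower in Treg cells of both mice (-0.75 ± 0.18 and -2.18 ± 0.18). Per length, Bcl6 over Prdm1 was 0.485 and 0.409 in the monoclonal Treg and 4.63 and 4.58 in the monoclonal non-Treg libraries, and 2.18 and 2.24 in the polyclonal Treg and 3.73 and 4.18 in the polyclonal non-Treg libraries, so Prdm1 exceeded Bcl6 in monoclonal Treg libraries and in no other.

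Of 9 tested Tfh genes, which Bcl6 accompanies, 9 were lower in monoclonal non-Treg than in polyclonal non-Treg cells, where 7.35% of all genes were. With scaling to the CD3 genes 6 were lower. The median without that scaling was -1.63, against -0.07 over all genes. In Treg cells 6 were lower in monoclonal than in polyclonal mice, where 12.1% of all genes were (median -1.01, or -1.05 with Il21 at its limit). Cxcr5, the receptor that leads T cells into follicles, had 10.1 and 7.17 CPM in monoclonal Treg and 76.4 and 109 CPM in polyclonal Treg libraries, and 15.5 and 12.8 CPM in monoclonal non-Treg and 61.0 and 75.3 CPM in polyclonal non-Treg libraries. Il21, the Tfh cytokine, had 0 reads in all 4 monoclonal libraries and 19.9 and 22.5 CPM in polyclonal non-Treg libraries, at least 118-fold lower in monoclonal non-Treg cells. Between Treg and non-Treg cells 3 of the list were higher and 1 lower in monoclonal mice, where 24.4% of all genes passed. In polyclonal mice 2 were higher and 2 lower, where 7.90% of all genes passed. Icos, a costimulatory receptor, was higher in Treg cells of both mice (1.66 ± 0.13 and 0.68 ± 0.13). Its polyclonal call was lost with scaling to the CD3 genes, where 0 of the list were higher and 2 lower in polyclonal Treg cells.

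**Figure D2:**
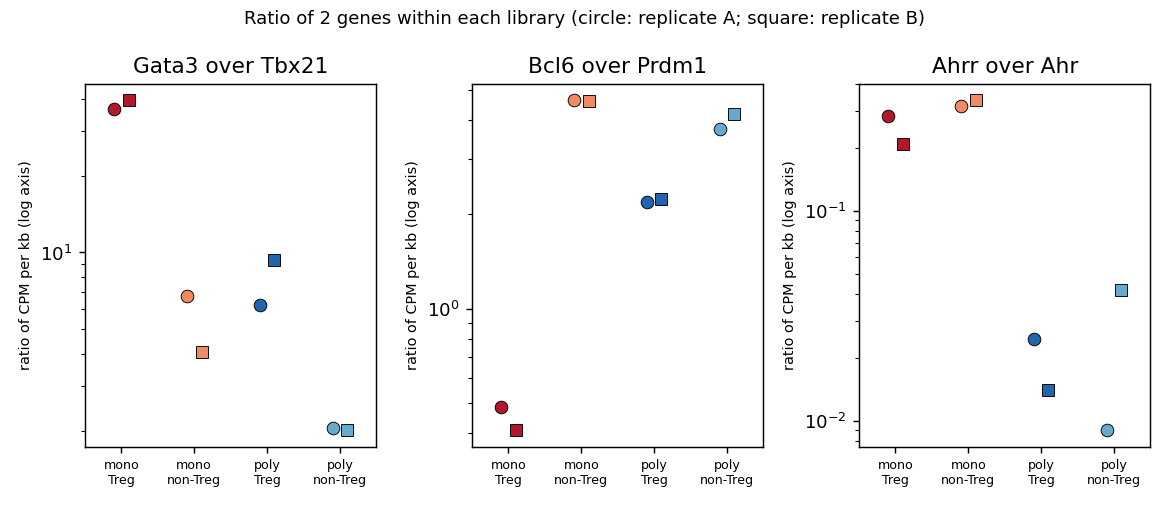
Ratio of 2 genes within each library, per transcript length, on log axes of different range, for the 4 groups along the horizontal axis; circles are replicate A and squares replicate B. Gata3 over Tbx21 is 36.4 and 39.6 in monoclonal Treg libraries against 6.76 and 4.07 in monoclonal non-Treg libraries, and Bcl6 over Prdm1 is below 1 only in the monoclonal Treg libraries.

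Ahr (NM_013464, chromosome 12, 36182651 to 36219661 on mm9, minus strand) had opposite orders in the 2 kinds of mice. It measured 47.6 and 32.4 CPM in monoclonal Treg and 58.0 and 63.9 CPM in monoclonal non-Treg libraries. It measured 47.2 and 33.7 CPM in polyclonal Treg and 16.3 and 19.7 CPM in polyclonal non-Treg libraries. Treg libraries lay below non-Treg libraries in monoclonal mice and above them in polyclonal mice, and the 2 Treg groups overlapped. The Treg effect was 1.11 ± 0.23 in polyclonal mice (adjusted p = 0.00757) and -0.62 ± 0.23 in monoclonal mice, which missed the threshold (adjusted p = 0.0696; -1.18 with scaling to the CD3 genes, adjusted p = 0.00716). The effects differed by -1.73 ± 0.33 (adjusted p = 0.00501). Within non-Treg cells, monoclonal exceeded polyclonal by 1.71 ± 0.23 (adjusted p = 8.22e-05), a ratio of 3.39, and within Treg cells the difference was -0.02 (95% interval -0.52 to 0.48). The polyclonal call was lost without polyclonal non-Treg replicate A (adjusted p = 0.106), and that of the difference without monoclonal non-Treg replicate B (adjusted p = 0.0561). Monocyte and macrophage markers, whose cells are known to use Ahr as dendritic cells do, summed to 198 to 331 CPM in monoclonal Treg and 520 to 611 CPM in monoclonal non-Treg libraries, against 22.4 to 33.9 CPM in the polyclonal libraries. Their part in the Ahr values was not tested.

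Of 5 tested Ahr target genes, 0 passed limma's test in either Treg effect, and edgeR and DESeq2 also called 0. With scaling to the CD3 genes, however, 0 were higher and 2 lower in monoclonal Treg cells (median -0.34). In limma 1 in monoclonal and 2 in polyclonal mice had an unadjusted p under 0.05. Over all genes, 24.4% passed in the monoclonal and 7.90% in the polyclonal effect. Between the mice, 3 targets were higher and 1 lower in monoclonal Treg cells, where 24.2% of all genes passed. In monoclonal non-Treg cells 2 were higher and 1 lower, where 19.4% of all genes passed. The Ahr repressor gene Ahrr, a feedback target, measured 11.6 and 5.82 CPM in monoclonal Treg and 0.995 and 0.406 CPM in polyclonal Treg libraries, and 15.7 and 18.5 CPM in monoclonal non-Treg and 0.127 and 0.710 CPM in polyclonal non-Treg libraries. Monoclonal libraries thus lay above all polyclonal ones (2.47 ± 0.44, adjusted p = 0.000975, in Treg and 3.70 ± 0.44, adjusted p = 2.15e-05, in non-Treg cells), while Ahr itself passed this comparison in non-Treg cells and not in Treg cells. Ugt1a6a, a conjugating enzyme, was higher in monoclonal cells in the same way (2.65 ± 0.54 and 3.72 ± 0.54), and Gpr15, a homing receptor for the colon, was lower (-1.98 ± 0.41 and -1.33 ± 0.41). Dendritic cell and monocyte markers were also higher in monoclonal libraries, and their part in the values of Ahrr and Ugt1a6a was not tested. Cyp1a1, the classical target, had reads in 1 library only, at 0.111 CPM. Arnt, the partner that Ahr needs to bind DNA, lay between 94.9 and 139 CPM and passed in no comparison.

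**Figure D3:**
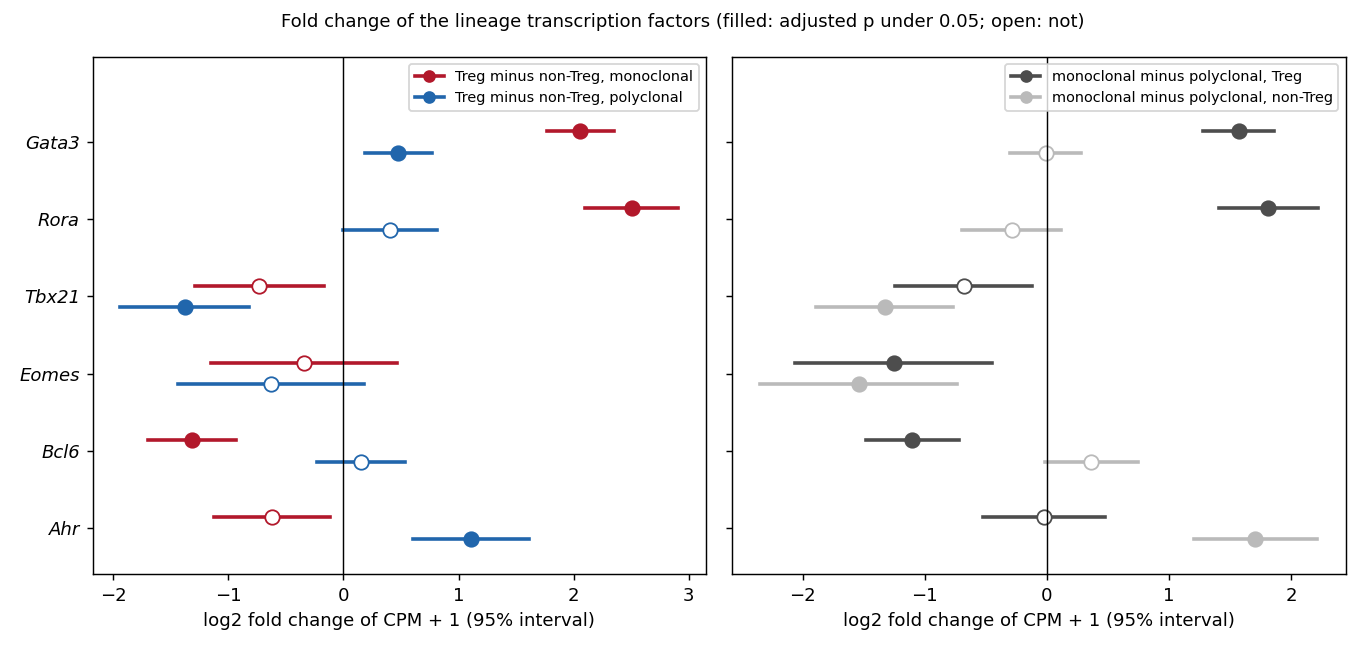
Log2 fold change of CPM + 1 (horizontal axes) with its 95% interval for the 6 factors, for Treg over non-Treg cells in each kind of mouse on the left and for monoclonal over polyclonal cells on the right; filled points have an adjusted p under 0.05. Gata3 and Rora reach 2.06 and 2.50 in monoclonal mice. The points of Bcl6 and Ahr lie on opposite sides of 0 in the 2 mice, but each passed in 1 kind only, Bcl6 in monoclonal and Ahr in polyclonal mice.

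Receptors and STAT proteins that act before these factors changed in both directions. Of 14 tested, 4 were higher and 7 lower in monoclonal Treg cells (median -0.36), where 24.4% of all genes passed. With scaling to the CD3 genes these were 1 and 9. In polyclonal Treg cells 4 were higher and 2 lower (median 0.06), where 7.90% of all genes passed. The polyclonal counts were 2 and 1 by edgeR, 5 and 1 by DESeq2, and 1 and 2 with scaling to the CD3 genes. Il12rb1, a chain of the interleukin-12 receptor that feeds Tbx21, measured 87.8 and 87.1 CPM in monoclonal Treg and 19.4 and 18.5 CPM in monoclonal non-Treg libraries. Il4ra, the interleukin-4 receptor that feeds Gata3, was lower in monoclonal Treg cells (-0.41 ± 0.14, adjusted p = 0.0424) and higher in polyclonal Treg cells (0.48 ± 0.14, adjusted p = 0.0480). Both Il4ra calls lie close to the threshold of 0.05. Tgfbr2, a chain of the TGF-β receptor, was lower in Treg cells of both mice (-0.70 ± 0.13 and -1.03 ± 0.13).

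Among 13 cofactors and partners, 4 were higher and 2 lower in monoclonal Treg cells (median 0.08), where 24.4% of all genes passed. With scaling to the CD3 genes these were 2 and 6 (median -0.48). In polyclonal Treg cells 4 were higher and 1 lower (median 0.16), where 7.90% of all genes passed. With scaling to the CD3 genes the polyclonal counts were 3 and 0 (median 0.18). Maf, a partner of Bcl6 in Tfh cells, measured 198 and 252 CPM in monoclonal Treg and 32.2 and 24.3 CPM in monoclonal non-Treg libraries, and 247 and 251 CPM in polyclonal Treg and 163 and 164 CPM in polyclonal non-Treg libraries. Its Treg effect was larger in monoclonal mice by 2.35 ± 0.22 (adjusted p = 3.02e-05), and the monoclonal non-Treg libraries were the low ones. Nfil3, a basic leucine zipper factor, was higher in Treg cells of both mice (1.82 ± 0.34 and 1.66 ± 0.34), and Runx3, a partner of T-bet, was lower in both (-0.91 ± 0.14 and -0.60 ± 0.14). The polyclonal call of Runx3 was lost with scaling to the CD3 genes. Irf4, which Treg cells use to restrain Th2 responses, was higher in polyclonal Treg cells (1.07 ± 0.16) and had a difference of Treg effects of -1.37 ± 0.22 (adjusted p = 0.00197).

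**Figure D4:**
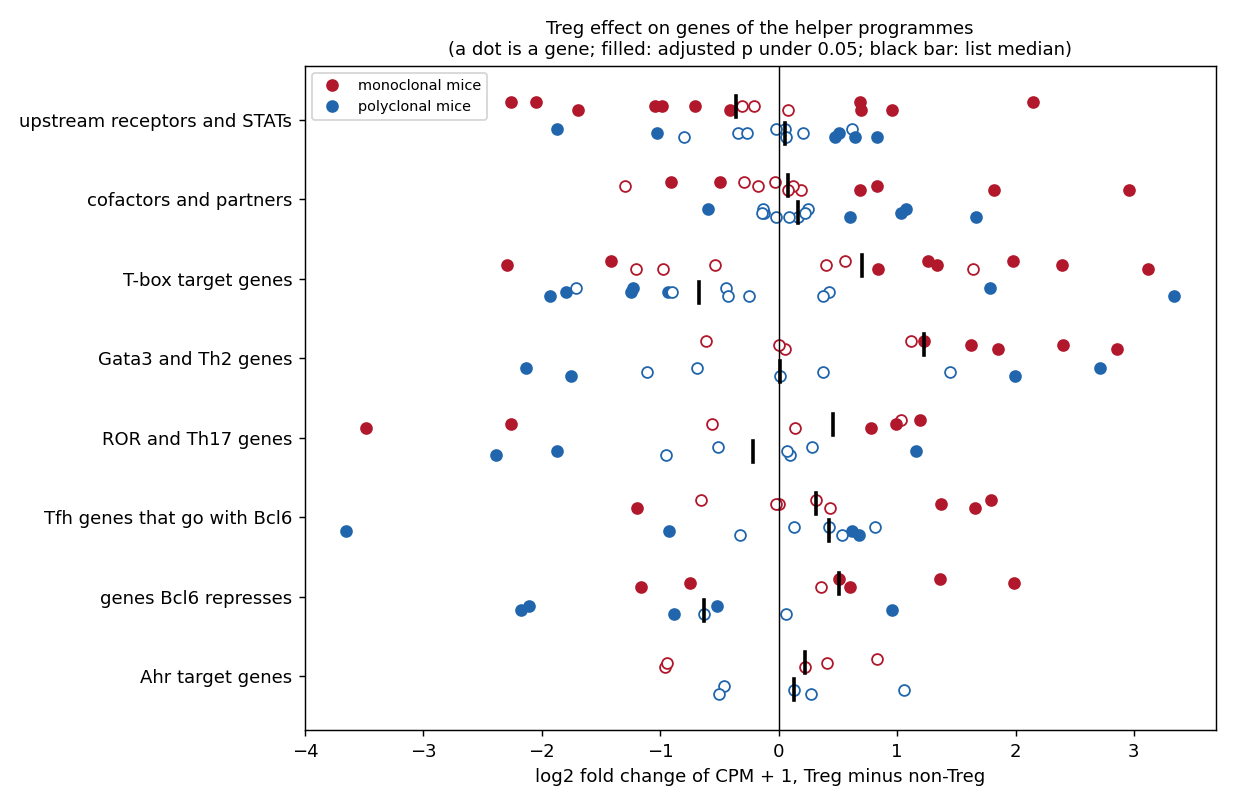
Treg over non-Treg log2 fold change of CPM + 1 (horizontal axis) of each tested gene on 8 lists, in monoclonal and polyclonal mice; filled dots have an adjusted p under 0.05 and black bars are list medians. The Gata3 and Th2 list has its median at 1.23 in monoclonal and 0.01 in polyclonal mice, and the list of genes Bcl6 represses has medians of 0.51 and -0.63.

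The genes whose level was most like that of each factor over the 8 libraries, among 9540 genes, are given as a description, since 4 groups of 2 libraries make up the points. For Gata3 they included Klf10 and Gimap7 (Pearson r = 0.998 and 0.991 on log2 values), and Klf10 averaged 74.4 CPM in monoclonal Treg, 24.4 in monoclonal non-Treg, 32.4 in polyclonal Treg and 25.0 in polyclonal non-Treg cells. For Rora they were Agpat5, Vps54 and Nckap1 (0.986, 0.985 and 0.985), for Tbx21 Maml2, Nav2 and Slc20a1 (0.985, 0.983 and 0.982), and for Eomes Lrpprc, Iars and Usp10 (0.985, 0.981 and 0.978). For Bcl6 they were Poc1b, Lasp1 and Fbxo42 (0.988, 0.985 and 0.979), and for Ahr they included Arl8b and Gpr34 (0.980 and 0.965).

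**Figure D5:**
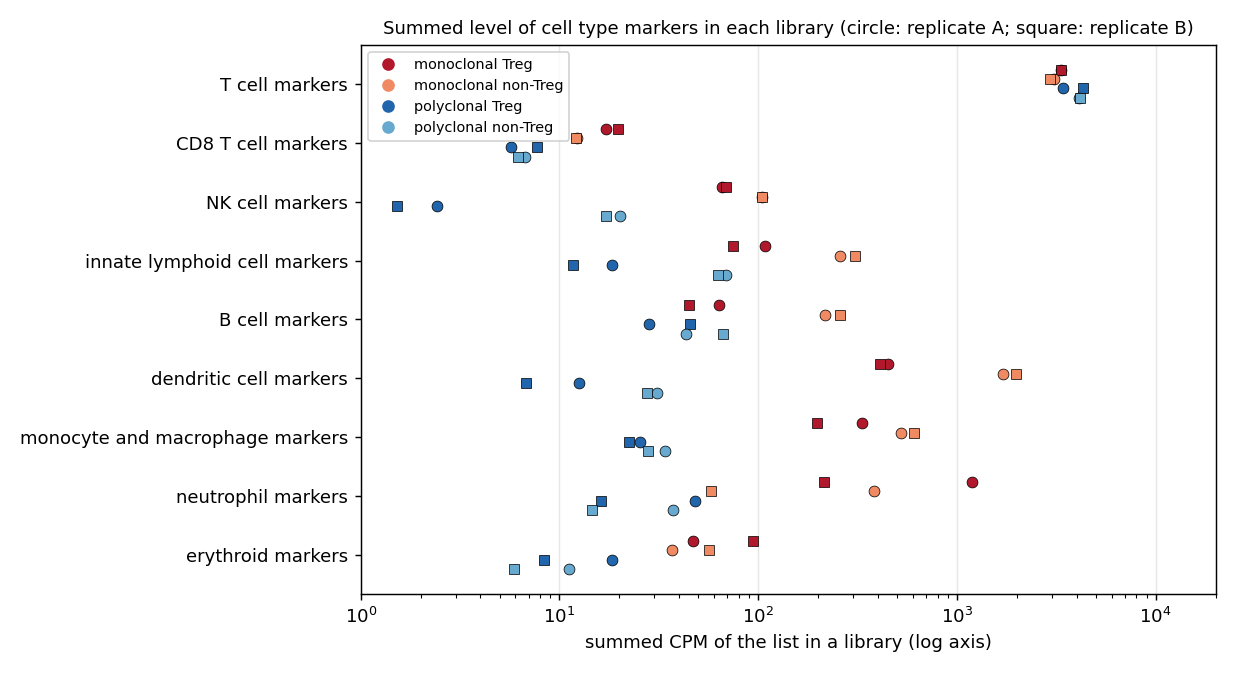
Summed CPM (log axis) of the markers of 9 cell types in each library; colours are the 4 groups, circles replicate A and squares replicate B. T cell markers lie between 2934 and 4310 CPM in all libraries, and dendritic cell markers reach 1972 CPM in monoclonal non-Treg libraries against at most 30.8 CPM in polyclonal ones.

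Neutrophil markers separated the replicates as well as the mice, with 1188 and 215 CPM in monoclonal Treg and 382 and 58.1 CPM in monoclonal non-Treg libraries. Replicate A was the higher one in all 4 groups, at 48.2 and 16.2 CPM in polyclonal Treg and 37.2 and 14.6 CPM in polyclonal non-Treg libraries. Between monoclonal Treg replicates A and B, Ahr measured 47.6 and 32.4 CPM, Bcl6 32.3 and 27.0 CPM, Tbx21 10.1 and 9.66 CPM, Gata3 464 and 481 CPM, Rora 457 and 513 CPM, and Eomes 3.74 and 6.78 CPM. The part of neutrophils in these values was not tested. Mast cell and basophil markers, whose cells can express Gata3, summed to at most 2.50 CPM in monoclonal Treg libraries and 6.77 CPM in any library.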

How the data were processed

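Libraries were made from poly-dT-selected RNA with strand kept and read as single ends of 50 bases (HiSeq2500), per the labels' protocols. Per the submitters' processing notes, tools named without roles were STAR 2.4.1a, HOMER 4.7, Trimmomatic 0.33, edgeR, FastQC 0.10.1 and CASAVA 1.8.2, and the build was mm9. Use of strand in counting and the handling of shared reads are not given in the sources used here, so reads of overlapping antisense genes cannot be told apart.

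The values the authors deposited are CPM, with 1 RefSeq transcript and mm9 position per gene. Values were whole multiples of 1 read in 100% of cases (within 0.01 read), so reads were recovered. A count of 0 allows up to 3 reads, and intervals and limits cover counting error only where they rest on reads. Python 3.11.15 and R 4.3.3 were used.

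The main test was limma 3.58.1 on log2(CPM + 1), which understates changes of low genes, with trend and robust spread, on 12881 genes that reached 1 CPM in 2 or more libraries, fitting 4 group means over 8 libraries. Tests were 2-sided, adjusted by Benjamini-Hochberg over all genes tested, with a threshold of 0.05. Fold changes carry the SE. The edgeR 4.0.16 quasi-likelihood test and DESeq2 1.42.0 on recovered reads, other pseudocounts, filters and scalings, a replicate block and leaving out each library were alternatives. The limma and edgeR fits were tested on simulated data.

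The 6 members and all gene lists were chosen with earlier results of these data known, so list counts are descriptions. Named are all members and their relatives, up to 3 passing genes of each list and comparison whose groups do not overlap, by size, and the 3 genes most like each member. A few genes that the rule names are not reported here, and the marker sums leave them out. Genes outside this rule, chosen after their values were seen, are the cytokines and receptors given as levels near 0, Arntl, Nr1d2, Stat3, Cxcr3, Ifng, Id2 and the comparisons named beside others. Promoter sequences and their starts are RefSeq's on GRCm38.p6, for 5 of the 6 members.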

Additional observations from a re-analysis of the deposited data

Results flagged for a closer look

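The Treg effect, the log2 fold change of Treg over non-Treg cells, differed between monoclonal and polyclonal mice for 4 of the 6 factors. It also differed for 22 of the list genes given by name. Each call was by limma's test of the difference with an adjusted p under 0.05, which 9.20% of all genes tested passed. List genes were named largely because they passed a comparison, this one included, so the 22 are a listing and no evidence of an excess. A positive value means a more positive effect in monoclonal mice. Among the factors the difference was 1.58 for Gata3, 2.10 for Rora, -1.47 for Bcl6 and -1.73 for Ahr. Among cofactors and partners it was 2.35 for Maf and -1.37 for Irf4. Among receptors that act before the factors it was 1.53 for Il12rb1, -2.10 for Il6st, -0.88 for Il4ra and -0.72 for Il6ra. For genes that go with Gata3 it was 2.03 for Ccr4, 3.36 for Il17rb and 1.81 for Epas1, and for ROR and Th17 genes it was 0.91 for Cry1 and -1.72 for Ccr6. For T-box target genes it included 1.97 for Gzmb, 1.71 for Cxcr3 and 2.27 for Il18rap.

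Genes that Bcl6 represses or accompanies had differences of 1.03 for Prdm1, 3.47 for Il7r, 1.43 for Id2, 1.24 for Klf2, 0.98 for Icos, 0.91 for Slamf6, -0.87 for Btla and 3.65 for Il21. Il21 had 0 reads in both monoclonal groups, so its value restates the polyclonal effect with the sign turned.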

How the results depend on the processing

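Of 30 member results, 17 passed the test and 10 of these did so under every alternative run (17 for the difference of effects, 18 for the other comparisons); no passing result changed sign. Scaling to the CD3 genes moved the median of all genes by -0.53 in the monoclonal effect, -0.55 in the difference and 0.47 between non-Treg cells. It gave 4835, 560 and 1944 genes for the monoclonal Treg effect, the polyclonal Treg effect and monoclonal minus polyclonal Treg cells. Using only the libraries compared gave 673 for the polyclonal effect, 1721 for Treg cells and 4413 for non-Treg cells between the mice, and no filter on low values gave 756 for the difference of effects. Leaving out 1 library gave 1306 to 3774 genes for the monoclonal effect, 429 to 1231 for the polyclonal effect, 361 to 1658 for the difference and 1373 to 3227 for non-Treg cells between the mice; each non-Treg library was one whose omission moved a count by over 1.5 times: without monoclonal non-Treg replicate A the monoclonal effect had 1879 and the difference 579, and without polyclonal non-Treg replicate A the polyclonal effect had 469 and the difference 547. The share of calls that were higher was 44.4% for the monoclonal effect, 8.50% with CD3 scaling; 39.6% for the difference, 4.90% with CD3 scaling; and 62.2% between non-Treg cells, against 72.6% by edgeR, 72.1% with TMM and 95.3% with CD3 scaling.

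Member results that changed sign had not passed the test. Eomes ranged from -0.85 to 0.17 (monoclonal effect) and -0.23 to 0.80 (difference, -0.22 with CD3 scaling) when 1 library was left out. Ahr between Treg cells gave 0.0028 by edgeR, 0.024 by DESeq2, 0.051 with TMM and -0.29 to 0.25 without 1 library. Gata3 between non-Treg cells gave 0.074 by edgeR, 0.068 by DESeq2, 0.074 with TMM, 0.49 with CD3 scaling and -0.14 to 0.13 without 1 library, and Rora gave 0.21 with CD3 scaling. The causes were not tested. With the replicate block, 3032, 945, 1094, 2969 and 2393 genes passed in the 5 comparisons, and the Gata3 polyclonal call was lost (adjusted p = 0.0617). The letters A and B were not taken as pairs, since deviations of libraries with the same letter had correlations between -0.0930 and 0.0969. Those between Treg and non-Treg cells of the same kind of mouse were the highest, at 0.0969 in monoclonal and 0.0752 in polyclonal mice. Correlations across the kinds of mice were at most 0.0112. Neutrophil markers were higher in A in all 4 groups. Groups of 2 libraries limit the precision, as does depth for genes near 1 CPM.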
